A study of Rattus norvegicus with 12 samples.

Results

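The narrow constant regions were stretches of amygdala chromatin that were called open in all 12 ATAC-seq libraries and had a short median length. All peaks of the 12 lists were merged wherever they shared at least 1 bp, which gave 118874 regions. A region was kept when each of the 12 libraries covered some of it and when its covered length, the number of its bases lying in peaks of a library, had a median under 1000 bp over the 12 libraries. This left 2619 regions, 2.20% of all regions and 12.1% of the 21640 regions found in all 12 libraries. The other 19021 constant regions had a median of 1000 bp or more. Presence and median length were therefore set by the selection and are given as a description. A further 10881 regions of the same short length, found in 6 to 11 libraries, served for comparison.

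The samples were frozen amygdala from adult male rats (Sprague Dawley/WT). The 6 Control animals received saline and the 6 Ethanol animals received 1 g/kg ethanol, in both cases by intraperitoneal injection, and tissue was taken 1 h later. Amygdala is a mixture of neurons, glia and vascular cells, so that an open site carried by fewer cells cannot be told apart from one that is less open in each cell. Peak lists hold no expression values and no genome annotation of their build was used, so the tissue label was not checked against marker genes. The libraries held from 50370 peaks (Ethanol 5) to 75847 peaks (Ethanol 6), covering from 75.6 Mb (Control 1) to 134.6 Mb (Ethanol 6). The number of reads behind each list is unknown.

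In ATAC-seq a transposase cuts and tags DNA where it is not wrapped around nucleosomes, and peaks mark the places where such cuts pile up. Open sites of this kind include promoters, where transcription starts, enhancers, which act on promoters from a distance, and sites held open by insulator proteins such as CTCF. Some of these sites are open in nearly every cell type, while others are used by few.

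The sequences below were chosen because they belong to genes whose start site lies inside a narrow constant region according to the study's own peak annotation. They are the RefSeq promoters (GRCr8) of Cit, which encodes a kinase of cell division, and of Heyl, which encodes a basic helix-loop-helix repressor of the Hey family downstream of Notch. Both run 5′ to 3′ on the strand of the gene, from 250 bases before to 50 bases after the start site. They were matched by gene symbol, because the peak lists use another build (Rnor_6.0). The capitals mark a motif found by a letter search.
Cit, chr12:46424607-46424906, minus strand: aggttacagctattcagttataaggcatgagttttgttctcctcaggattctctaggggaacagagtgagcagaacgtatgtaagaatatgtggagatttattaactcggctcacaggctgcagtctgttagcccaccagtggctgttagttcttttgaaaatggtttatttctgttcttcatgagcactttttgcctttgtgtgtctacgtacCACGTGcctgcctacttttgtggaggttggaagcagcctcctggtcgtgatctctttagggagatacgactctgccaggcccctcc
Heyl, chr5:140793021-140793320, plus strand: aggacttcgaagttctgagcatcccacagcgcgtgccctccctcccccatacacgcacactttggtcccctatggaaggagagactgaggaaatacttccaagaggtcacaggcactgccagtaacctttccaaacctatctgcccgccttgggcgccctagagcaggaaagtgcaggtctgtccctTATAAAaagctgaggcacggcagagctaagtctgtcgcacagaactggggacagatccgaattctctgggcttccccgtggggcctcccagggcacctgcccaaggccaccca

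The capitals in the Cit promoter are an E box core (CACGTG, bases 215 to 220), which 6.42% of the 33469 RefSeq promoters of this length hold. Those in the Heyl promoter are a TATA box (TATAAA, bases 188 to 193), which 14.2% of promoters hold. A GC box (GGGCGG) and a CCAAT box (CCAAT), present in 33.1% and 37.5% of promoters, were searched on both strands and are not in either window. Cit had a GC content of 46.3% with 6 CpG sites and Heyl 58.0% with 10 CpG sites, against medians of 51.7% and 7 over all promoters. Neither promoter lay at an extreme of GC content. These matches describe letters and say nothing of binding.

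At the Cit promoter the narrow constant region was chr12:46493384-46494889 (Rnor_6.0, as are all region positions that follow). Its covered length had a lowest, median and highest value of 547, 1034.5 and 1506 bp in Control and of 748, 845 and 1048 bp in Ethanol. All Ethanol values of this region lay inside the Control range. At the Heyl promoter the region chr5:140923056-140924842 covered 830, 978 and 1607 bp in Control and 813, 939 and 1380 bp in Ethanol, and the groups overlapped almost completely. The region chr3:167596239-167597224, annotated to the promoter of LOC100912009, covered 599, 740.5 and 917 bp in Control and 493, 585.5 and 857 bp in Ethanol. Another region, chr5:151900917-151903144, was annotated to the promoter of Pigv, a mannosyltransferase of glycosylphosphatidylinositol anchor synthesis, without holding its start site. There the covered length was 701, 1410.5 and 2228 bp in Control and 571, 776 and 952 bp in Ethanol. The Control libraries of the Pigv region spread widely and the ranges again overlapped.

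These gene names came from a shortened copy of the study's peak table, ordered by its own test on these same samples, so the genes are no random choice and their Ethanol and Control values are not independent evidence. Of its 1997 listed peaks, 1996 had the exact bounds of a merged region and 47 were narrow constant regions. Promoter labels were carried by 4 of these 47, a gene body label alone by 14, and 29 had neither. The 14 are all the regions with a gene body label alone. The choice to name them, and of those given with their lengths, was made after the values were seen. Among the 14 was Fgf2, a fibroblast growth factor, whose region chr2:124111006-124112495 covered 479, 696 and 1099 bp in Control and 909, 1112 and 1490 bp in Ethanol. Nedd9, a scaffold protein of focal adhesions, had 616, 662 and 1177 bp against 850, 1156.5 and 1544 bp at chr17:23135323-23136967. Adarb2, a brain member of the RNA adenosine deaminase family, had 427, 606.5 and 870 bp against 636, 935 and 1140 bp at chr17:58444550-58445925. Fgf2, Nedd9 and Adarb2 had the largest log2 differences of the 14. In each of them the Ethanol median was the larger and the groups overlapped. Cacna2d3, an auxiliary subunit of voltage-gated calcium channels, had 782, 884 and 1303 bp in Control and 894, 1115.5 and 1569 bp in Ethanol at chr16:4977312-4978952. Ncam2, a neural cell adhesion molecule, had one of the shortest of these regions, chr11:19771316-19771838, with 364, 408.5 and 470 bp in Control and 370, 383.5 and 438 bp in Ethanol. Igf1r, the receptor of insulin-like growth factor 1, had 542, 666.5 and 1289 bp in Control and a median of 581.5 bp in Ethanol at chr1:129078947-129080572. The remaining gene body names were Gng12, Kcng2, LOC367515, Mcub, Mtus2, Ninl, Nckap5 and Crtc3, whose Control medians ran from 563 bp (Mcub) to 1059.5 bp (LOC367515). Among these the Ethanol median was larger than the Control median in Gng12, Mcub, Mtus2 and Ninl. It was smaller in Kcng2, LOC367515, Nckap5 and Crtc3, as in Ncam2 and Igf1r. The gene body regions thus shared no direction.

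The narrow constant regions had a median covered length from 275.5 to 999.5 bp, with quartiles of 656 and 913.5 bp around a median of 803 bp. Only 90 of them (3.44%) were under 400 bp, 394 were from 400 to 600 bp, 808 from 600 to 800 bp and 1327 from 800 to 1000 bp. Most thus stood near the limit. Just inside it, at 999.5 bp, were chr1:265472709-265474048, chr2:183255515-183257257 and chr4:140219595-140221014. Just outside it, at 1000 bp, were chr6:44151962-44153942, chr7:66854184-66858009 and chr7:99773398-99775307. The first of the inside regions covered 626 to 1281 bp and the first of the outside regions 851 to 1950 bp, so that the limit parted regions with overlapping lengths. Within the bulk of longer regions there was a separate pile at 375 to 400 bp, which held 70 regions against 11 in the 25 bp below and 27 in the 25 bp above. Narrow regions of 6 to 11 libraries had no such pile, with 79, 112 and 119 regions in the same steps. The step was picked after the values were seen. The 70 regions lay on 21 chromosomes, with the most, 8, on chromosome 1. Their median length in a library was 382 (Ethanol 4) to 394.5 bp (Control 5), which follows from their selection by median length. Single values ran from 205 to 954 bp, both in Control 1.

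**Figure D1:**
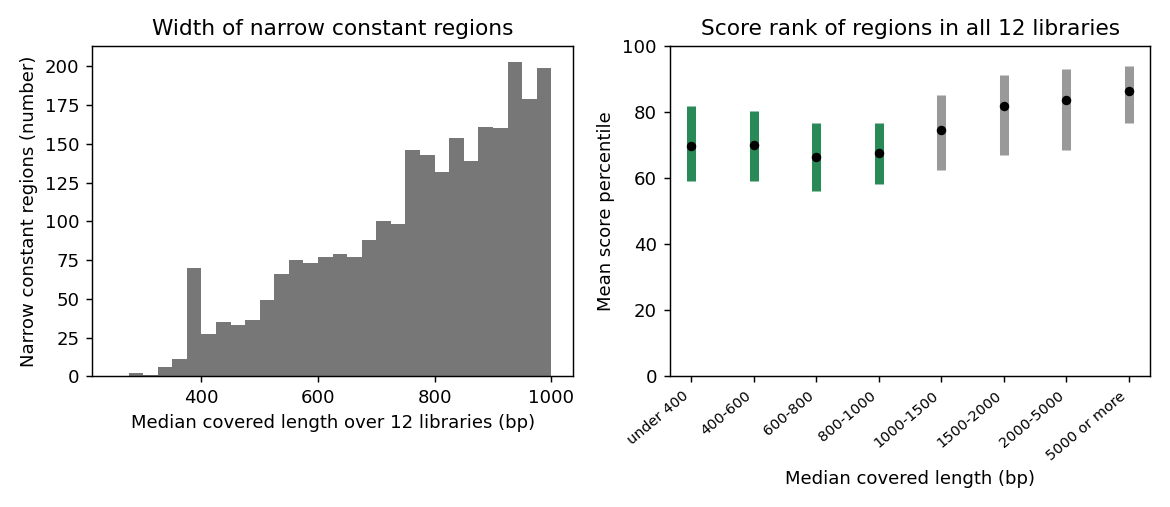
Left, number of narrow constant regions (vertical axis) by median covered length over 12 libraries in bp, in steps of 25 bp. Right, mean score percentile of all regions found in 12 libraries by median covered length in bp (dots, medians; bars, quartiles; green, narrow constant regions; grey, longer ones). The pile at 375 to 400 bp holds 70 regions, and the medians on the right run from 66.4 to 70.1 below 1000 bp and from 74.6 to 86.4 above.

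To rank peaks, each peak was given the percentile of its deposited score within its own library, and a region took the highest percentile of its peaks. The selection did not use the score directly, but a peak had to be listed in each library to count, and the listed scores start at 5.03, so that presence in all 12 lists is tied to the score. In every library the narrow constant regions ranked below the longer constant regions and above the narrow regions found in 6 to 11 libraries. Their median score percentile ran from 67.6 (Ethanol 3) to 77.2 (Ethanol 6), that of longer constant regions from 79.2 to 86.5, and that of the narrow regions of 6 to 11 libraries from 36.5 to 49.4. The 3 ranges did not overlap. The difference from longer constant regions was -10.8 ± 1.26 percentile points (SD, n = 12 libraries), negative in 12 of 12 libraries, with a two-sided exact sign-flip permutation test p of 0.000488. This p is the smallest that 12 libraries allow, and it was 0.000488 after adjustment over 2 comparisons. The same regions, parted by length in these same libraries, were scored in each library. The p therefore speaks only of how regular the difference was over libraries. The difference from narrow regions of 6 to 11 libraries, 29.4 ± 2.19 points (SD, n = 12 libraries), is a description, since these classes were parted by the number of lists that held them. Taking the highest percentile favours regions with several peaks. A single peak in all 12 libraries made up 92.5% of the narrow but 41.6% of the longer constant regions, so the measure favours the longer ones. When a region took the lowest instead of the highest percentile of its peaks, the difference from longer constant regions was -3.91 points.

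In each library a smaller share of narrow than of longer constant regions had high scores, given here as a description. The top 10% of scores of a library held 6.34 to 9.70% of the narrow constant regions and 25 to 37.2% of the longer constant ones, and the lower 50% held 6.91 to 25.5% of the narrow constant regions. Averaged over libraries, 173 narrow constant regions (6.61%) had a percentile of 90 or more and 281 (10.7%) were under 50. Within the narrow class, width and score were nearly unrelated, with Spearman's rho across the 2619 regions of -0.04 to 0.09 in single libraries. Among longer constant regions rho was 0.11 to 0.27. Regions are not replicates and share their libraries, so these coefficients are descriptions. The highest mean percentile belonged to chr1:180892900-180893791 (99.98), followed by chr1:180881949-180882878 and chr1:180857893-180858685 (both 99.97). The lowest belonged to chr1:240707385-240709713 (28.2), chr10:48292213-48293612 (29.2) and chr14:52332139-52333205 (29.3). The 3 highest lay close together on chromosome 1, while the 3 lowest were on different chromosomes. When each list was cut down to the 50% of its peaks with the higher scores, 1087 of the 2619 regions (41.5%) still had a peak in all 12 libraries, 1532 had one in 1 to 11 and 0 had none.

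Width stability was read from the spread of a region over the 12 libraries. The ratio of longest to shortest covered length had a median of 2.04, was under 1.5 in 18.4% of narrow constant regions and over 3 in 15.5%. The SD of log2 covered length had a median of 0.31, against 0.33 in longer constant regions and 0.43 in narrow regions of 6 to 11 libraries. Because the selection capped the median length, these values are descriptive. Nearly all narrow constant regions were single peaks. One peak covered the region in 98.1 to 99.5% of cases per library, and 2423 regions (92.5%) were a single peak in all 12 libraries, against 7910 (41.6%) of the longer constant regions. The centre of the region moved with an SD of 83.7 bp over libraries (median over regions), the left edge with 108 bp and the right edge with 102 bp. The core shared by all 12 peaks had a median of 483 bp, or 65.5% of the median length, and in 9 of the 2423 single-peak regions no base was shared by all 12. In 41.2% of regions one edge had more than 2 times the SD of the other.

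Regions with higher scores had more even widths. The SD of log2 covered length fell from a median of 0.38 in regions with a mean percentile below 50 to 0.34 at 50 to 75, 0.25 at 75 to 90 and 0.11 at 90 and above. In the 173 regions of the top class the centre moved with an SD of 28.1 bp and the shared core took 86.2% of the median length. Spearman's rho between score percentile and SD was -0.39 across the 2619 regions, -0.36 without the dense stretch of chromosome 1 described below, -0.49 in longer constant regions and -0.20 in narrow regions of 6 to 11 libraries. The same sign was seen in all of these classes. The evenest region was chr6:58929736-58930131, which covered 387, 389 and 390 bp in Control (lowest, median, highest) and 384, 389 and 393 bp in Ethanol. The next was chr2:217642381-217642763, with 376, 376 and 380 bp in Control and 371, 375.5 and 381 bp in Ethanol. The third was the top-scoring chr1:180892900-180893791, with 861, 867.5 and 878 bp in Control and 861, 865.5 and 881 bp in Ethanol. In all of these the groups overlapped and the longest library exceeded the shortest by little. At the other end, the low-scoring chr1:240707385-240709713 covered 362, 560.5 and 1317 bp in Control and 571, 1376.5 and 2329 bp in Ethanol.

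A small set of narrow constant regions had edges at almost the same base in every library. Both edges had an SD under 10 bp in 34 regions (1.30%), against 4 of the 19021 longer constant regions (0.0210%) and 12 of the 10881 narrow regions of 6 to 11 libraries (0.110%), where the SD is over fewer libraries. A fixed limit in bp is harder to meet for longer regions. The limit was chosen after the values were seen and carries no test. Even lengths and steady centres of these regions follow from the limit. The 34 regions had a median length of 392 bp, 388.5 to 395.5 bp in single libraries, and their centres moved with an SD of 2.39 bp. Of these, 21 were under 400 bp long. Their mean score percentile ran from 54.2 to 99.98 with a median of 87.7, and 12 were at 90 or above. They lay on several chromosomes, with 6 on chromosome 1, 5 on chromosome 2, 4 on chromosome 20 and 0 on the X chromosome. The nearest other region was at a median distance of 16728 bp. Without the 3 that lay in the dense stretch of chromosome 1, the other 31 had a median percentile of 86.1.

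**Figure D2:**
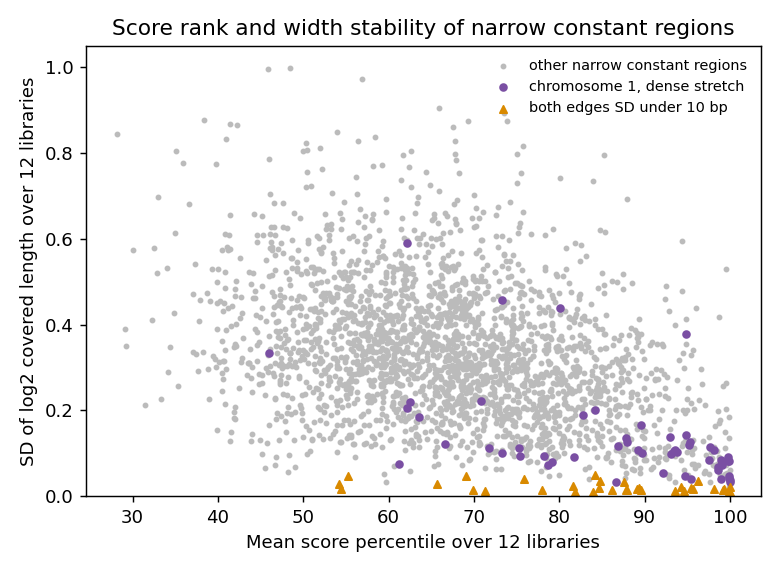
SD of log2 covered length over 12 libraries (vertical axis) against mean score percentile over 12 libraries (horizontal axis) for each of the 2619 narrow constant regions. Purple, regions on chromosome 1 from 180 to 182 Mb that are not triangles; orange triangles, regions with both edges at an SD under 10 bp; grey, all others. The cloud narrows towards high scores, from a median SD of 0.38 below percentile 50 to 0.11 at 90 and above. The triangles, selected for steady edges, lie along the lower border from 54.2 to 99.98.

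Narrow constant regions stood farther from their neighbours than longer constant regions did. The distance to the nearest other region of any kind had a median of 5160 bp (quartiles 1263 and 16151 bp), against 1385 bp for longer constant regions and 4114 bp for narrow regions of 6 to 11 libraries. More than 10 kb of unlisted sequence lay on both sides of 36.1% of narrow constant regions, 18.1% of longer constant regions and 30.7% of narrow regions of 6 to 11 libraries. The most isolated were chr1:68268503-68269739, with 878144 bp to the nearest region, chrX:31140172-31141602 with 657139 bp and chr8:19866619-19868147 with 545660 bp. These isolated sites had mean percentiles of 73.9, 92.6 and 88.4. The closest to a neighbour were chr4:81816835-81817977, which abutted another region (0 bp), chr2:187332074-187334644 and chr15:18297715-18298869 (both 1 bp). All distances depend on the merging of peaks that share 1 bp and on which regions any library listed.

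Distances to broad regions, defined by a median covered length of 5000 bp or more in regions of all 12 libraries, were long. The median was 742751 bp for narrow constant regions, 233346 bp for longer constant regions and 847664 bp for narrow regions of 6 to 11 libraries. Within 100 kb of a broad region lay 21.2% of the narrow constant regions, against 37.9% and 17.0%. Over 1 Mb away lay 43.8%, against 29.0% and 46.8%. On each of these measures the narrow constant regions lay between the other classes, nearer to the narrow regions of 6 to 11 libraries. The nearest constant region of any length was 28797 bp away (median), and the nearest other narrow constant region 240577 bp. Within the narrow class, distance to any region was longest for those under 400 bp (median 15539 bp) and was 4638 to 5299 bp in the longer steps. No test was made of these distances, since neighbouring regions share position and libraries.

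**Figure D3:**
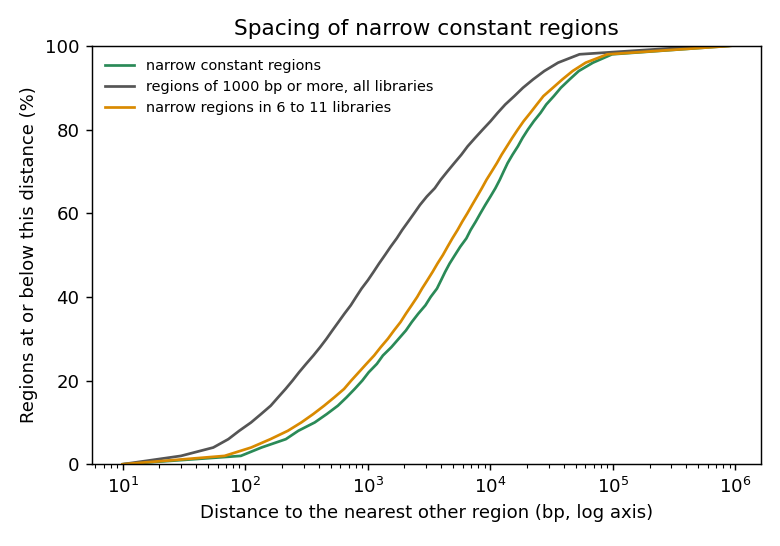
Cumulative share of regions in % (vertical axis) by distance to the nearest other region in bp (horizontal log axis, distances under 10 bp drawn at 10). Green, narrow constant regions; grey, regions of 1000 bp or more in all 12 libraries; orange, narrow regions in 6 to 11 libraries. The green curve lies to the right of the others over most of its course, with medians of 5160, 1385 and 4114 bp.

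All 20 autosomes, X and Y held narrow constant regions. Chromosome 1 held the most, 346 (13.2%, against 11.8% of longer constant regions). The X chromosome held 89, or 3.40%, against 1.64% of the longer constant regions and 1.81% of the narrow regions of 6 to 11 libraries. Narrow regions made up 22.3% of the constant regions on X, against 12.1% over all chromosomes, and 16.7% on chromosome 15, 15.6% on chromosome 14 and 8.83% on chromosome 10. Only 1 region lay on Y. The X regions had a median distance of 10580 bp to the nearest region and a median score percentile of 72.2, and 10 of the 89 (11.2%) had a percentile of 90 or more.

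Along the chromosomes most narrow constant regions were scattered. Of 2781 windows of 1 Mb that held any region, 1462 held a narrow constant region and 832 held exactly 1. A few windows were dense. The 8 windows with 10 or more held 145 regions (5.54%). Chromosome 1 held 36 from 180 to 181 Mb and 22 from 181 to 182 Mb, chromosome 9 held 19 from 8 to 9 Mb and 15 from 12 to 13 Mb, chromosome 13 held 17 from 33 to 34 Mb, and chromosome 14 held 14 from 4 to 5 Mb. Chromosome 14 from 94 to 95 Mb and chromosome 19 from 28 to 29 Mb held 11 each. Over the 8 windows pooled the median score percentile was 82.7 and the median SD of log2 covered length 0.12, against 67.0 and 0.32 outside them. The high percentile was not shared by all windows. Off chromosome 1 the window medians ran from 67.9 (chromosome 19, where 0 of 11 were at 90 or above) to 87.1 (chromosome 13). The chromosome 9 window from 8 to 9 Mb had 74.5. Their median SD was 0.11 to 0.18. The 58 narrow constant regions from 180 to 182 Mb on chromosome 1 had a median percentile of 93.1 (range 46.0 to 99.98) and a median SD of 0.10. They supplied 31 of the 173 regions at or above percentile 90. Without them the class had 2561 regions, a median percentile of 67.3 and a median SD of 0.32. No check of repeated sequence or of unique read mapping was made for these windows.

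The question put to the design was whether ethanol changed the length of these sites after 1 h. No narrow constant region passed the threshold, and the class as a whole did not differ between Ethanol and Control beyond the spread of the animals. The median covered length over the 2619 regions was 761, 741, 754, 753, 768 and 841 bp in Control 1 to Control 6. In Ethanol 1 to Ethanol 6 it was 793, 751, 742, 758, 786 and 907 bp. The groups overlapped, with replicate 6 the highest of each. The Control mean was 770 ± 36.1 bp and the Ethanol mean 790 ± 60.9 bp (± SD over 6 libraries per group), a difference of 19.8 bp (two-sided exact permutation test, p = 0.552, adjusted 0.823 over 5 comparisons). Without Ethanol 6 the difference turned to -2.53 bp, and without Control 6 it was 35.0 bp. The smallest p that 6 against 6 libraries can give is 0.00216.

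The other summaries of the class also did not differ beyond the spread of the animals. Divided by the median of all constant regions of the library, the covered length was 0.411 ± 0.0190 in Control and 0.404 ± 0.0184 in Ethanol (exact permutation test, p = 0.476, n = 6 each). The median score percentile was 70.8 ± 3.64 in Control and 71.9 ± 4.03 in Ethanol (exact permutation test, p = 0.658, n = 6 each). Narrow constant regions made up 2.42 ± 0.305% of the length in peaks in Control and 2.26 ± 0.278% in Ethanol (exact permutation test, p = 0.359, n = 6 each). The within-group SD of log2 covered length, as a median over regions, was 0.292 in Control and 0.291 in Ethanol (exact permutation test, p = 0.881). Adjusted over the 5 comparisons, p was 0.823 for the first ones and 0.881 for the spread. The score percentile difference of 1.08 points became -0.137 without Ethanol 6. A p above the threshold does not show that the groups were alike.

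Median lengths were greater in libraries with more length in peaks. The highest library median was 1.22 times the lowest in narrow constant regions and 1.39 times in longer constant regions (1902 to 2642 bp). Across the 12 libraries the narrow constant median rose with the length in peaks (Pearson's r = 0.918, Spearman's rho = 0.699). Both lengths come from the same peak lists, and covered length was used in the selection. These coefficients are therefore descriptions and carry no test. Without Control 6 and Ethanol 6, the libraries farthest from the median length in peaks, r was 0.636, so that much of this relation rested on them. Within Control r was 0.914 and within Ethanol 0.929 (n = 6 libraries each), with Control 6 and Ethanol 6 included. The narrow constant regions themselves make up 1.88 to 2.71% of the length in peaks. The values that follow are likewise descriptions only, because the measures are tied to the length or number of peaks by their making. The median of longer constant regions, which are a part of the length in peaks, had r = 0.985 with it. The share of the narrow constant regions, which has that length as its denominator, went from 2.71% in Control 1 to 1.88% in Ethanol 6. Their median score percentile, a rank in lists of 50370 to 75847 peaks, was lowest in Ethanol 3 (67.6) and highest in Ethanol 6 (77.2), and a longer list can raise it by adding low scores. Ethanol 6 was the longest library for 557 narrow constant regions and the shortest for 53, while Ethanol 3 was the shortest for 317. The number of reads per library was not available to these comparisons, and its part in the lengths was not tested.

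**Figure D4:**
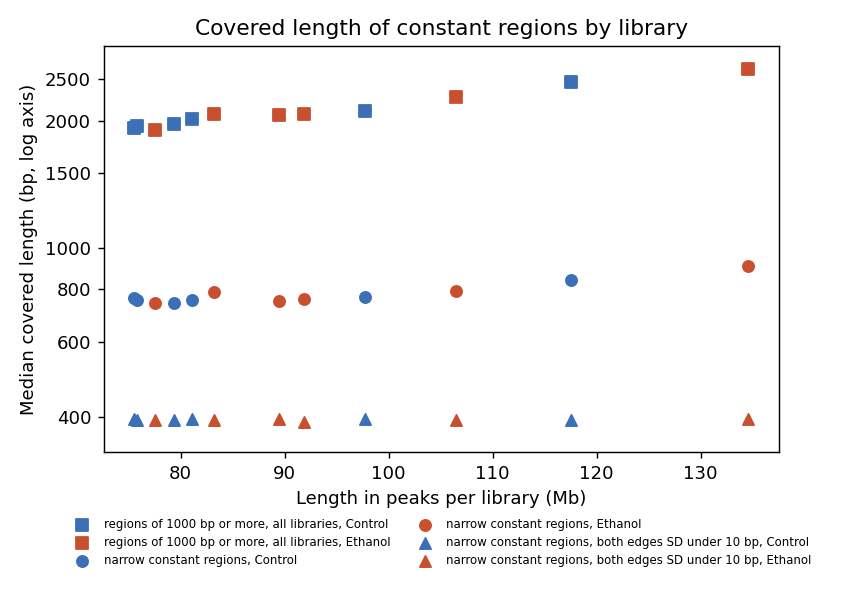
Median covered length in bp (vertical log axis) of 3 sets of regions in each of the 12 libraries, against the length in peaks of the library in Mb (horizontal axis). Squares, constant regions of 1000 bp or more; circles, narrow constant regions; triangles, narrow constant regions with both edges at an SD under 10 bp; blue, Control; red, Ethanol. Squares span 1902 to 2642 bp and circles 741 to 907 bp, with both rising to the right. Triangles stay between 388.5 and 395.5 bp, which follows from their selection for steady edges over these same libraries.

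Region by region, log2 covered length was compared by limma over all 21640 constant regions, after the median of each library was subtracted. No narrow constant region had an adjusted p under 0.05 (0 of 2619; percent called over all constant regions, 0), and the smallest adjusted p from limma was 0.878. At an unadjusted p under 0.05 limma gave 122 narrow constant regions (4.66%), against 5.18% of all constant regions. Of these, 48 (1.83%) were longer in Ethanol, against 2.95% of all constant regions, and 74 (2.83%) were shorter, against 2.22%. The log2 difference was above 0 in 40.7% of narrow constant regions and 47.3% of all. These differences are relative to the median of the library, and the median itself was 0.06 higher on the log2 scale in Ethanol. Leaving out 1 library moved the split. With Control 6 left out it was 54 longer and 119 shorter of 2752, beside 6.11% of all constant regions called in either direction. With Ethanol 6 left out it was 62 longer and 63 shorter of 2791, beside 4.66%. Without the subtraction the direction turned, with 80 longer and 36 shorter, beside 4.57% of all constant regions called. In that fit 55.7% were above 0, against 62.0% of all constant regions. After quantile normalization 52 were longer and 74 shorter, beside 5.34% called, with 44.0% above 0, against 44.9%. Calls over all constant regions were not split by direction in these fits. In the main fit the median log2 difference was -0.04 (quartiles -0.14 and 0.08, range -0.89 to 0.87), with a median SE of 0.17.

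The 3 regions with the smallest p in each direction show the size of the differences. The region chr12:48457886-48460124 covered 587, 745.5 and 1337 bp in Control and 945, 1742.5 and 1975 bp in Ethanol, a log2 difference of 0.85 ± 0.20 (SE). The region chr3:82324924-82327582 covered 595, 774.5 and 895 bp against 834, 1340.5 and 2333 bp (log2 difference 0.80). The region chr4:61900749-61902113 covered 391, 600.5 and 839 bp against 675, 837 and 1337 bp (0.61). In each of these longer regions the lowest Ethanol library lay inside the Control range. Among the shorter ones, chr6:75235593-75237278 covered 904, 1368.5 and 1487 bp in Control and 667, 776.5 and 1026 bp in Ethanol (-0.71 ± 0.16). For chr4:64968113-64970431 the values were 862, 1247 and 1712 bp against 548, 692 and 979 bp (-0.82), and for chr14:6150106-6151465 they were 880, 1013 and 1197 bp against 717, 819 and 911 bp (-0.38). The groups overlapped in all 6 regions, whose adjusted p from limma was 0.878 each.

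**Figure D5:**
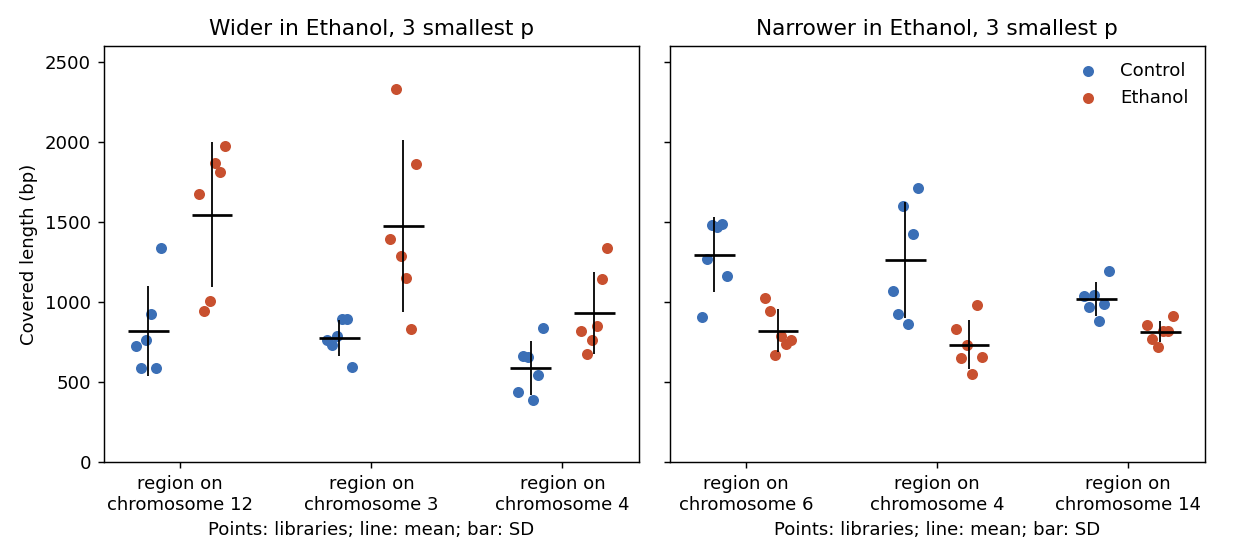
Covered length in bp (vertical axis, from 0) of the 3 longer (left) and 3 shorter (right) narrow constant regions with the smallest p from limma. Points are libraries (blue, Control; red, Ethanol), horizontal lines means and vertical bars SD, n = 6 per group. The groups overlap in each region, as at the chromosome 12 region, where Control reaches 1337 bp and Ethanol starts at 945 bp.

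Groups that did not overlap were rare among narrow constant regions. In 3 of them (0.115%, against 0.148% of all constant regions) every Ethanol library was longer than every Control library, and in 0 every Ethanol library was shorter (0.0185% of all constant regions). The 3 were named after their values were seen. They were chr2:210582346-210583800, with 848, 888 and 923 bp in Control and 950, 1117.5 and 1390 bp in Ethanol, chr4:92323787-92324407, with 371, 376.5 and 413 bp against 429, 474 and 510 bp, and chr8:60617272-60619201, with 629, 702.5 and 808 bp against 827, 960 and 1715 bp. None of them passed the adjusted threshold of limma.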

How the data were processed

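ATAC-seq peak lists of 12 rat amygdala libraries were used, 6 Control and 6 Ethanol, grouped by title and treatment label. The authors deposited 1 list per library with position, name and a score, whose meaning was not given. The submitters' processing notes name BWA, MACS2 2.1.1, bedtools 2.27.1, featureCounts 1.5.0, edgeR and Rnor_6.0. Deposited scores served only for ranks within a library. The lists carry no read counts, so the count test of the study was not repeated, depth is unknown, and treatment of transposase offsets and duplicates is not given in the sources used here. Labels name no batch.

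Peaks were merged at 1 bp overlap and positions written 1-based. Covered length, score percentile, edges and distances were computed with Python 3.11.15, NumPy 2.4.6, pandas 2.3.3 and SciPy 1.17.1, merging was checked with bedtools 2.31.1, and the log2 fit used limma 3.58.1 in R 4.3.3 (checked on simulated data) with Benjamini-Hochberg adjustment and a threshold of 0.05. Group means were compared by exact permutation tests, and relations across libraries were described by Pearson's and Spearman's coefficients. Same-numbered samples were not shown to be paired. The narrow constant regions, comparisons and lists were chosen with earlier results of these data known.

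Named were the 3 regions most even in length, highest and lowest in score, longest and shortest in Ethanol by p, nearest the limit on each side, and farthest from and nearest to another region, and the promoters of the study's peak table. The study's fold changes and p-values in that table were not used. Alternatives were higher scoring peaks, equal peak numbers, autosomes and X only, other limits, merging up to 100 bp apart, mean length, other centring, a pseudocount, the lowest score, a replicate block and leaving out libraries. Chosen after seeing the data were omission of chromosome 1 from 180 to 182 Mb and of both Control 6 and Ethanol 6. The genome and annotation of Rnor_6.0 were not used here. Promoter sequences are from RefSeq (GRCr8); 3 of 4 symbols matched.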

Additional observations from a re-analysis of the deposited data

Results flagged for a closer look

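In 68 groups of 6 libraries, the extreme library was compared with the range of its group. Such a check picks out about 1 group in 20 by chance, or 3.4 of 68, and 6 groups were picked out. The median covered length of narrow constant regions was 841 bp in Control 6 and 741 to 768 bp in the other Control libraries. It was 907 bp in Ethanol 6 and 742 to 793 bp in the other Ethanol libraries. The even region chr2:217642381-217642763 covered 380 bp in Control 2 and 376 to 377 bp in the other Control libraries. The region chr2:187332074-187334644, which lies 1 bp from its neighbour, covered 2571 bp in Control 6 and 544 to 933 bp in the other Control libraries. Just outside the limit of 1000 bp, chr6:44151962-44153942 covered 1950 bp in Ethanol 6 and 851 to 998 bp in the other Ethanol libraries, and chr7:66854184-66858009 covered 3826 bp in Control 6 and 672 to 1456 bp in the other Control libraries. In 5 of the 6 the high value belonged to Control 6 or Ethanol 6, the libraries with the most length in peaks of their groups.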

How the results depend on the processing

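The number of narrow constant regions depended on the limit and on the peaks used. It was 1292 at a limit of 800 bp, 4385 at 1200 bp and 1126 with the higher scoring 50% of peaks, by construction of these choices, and 2676 to 2860 when 1 library was left out. Narrow constant regions at an unadjusted limma p under 0.05 numbered 52 of 1126 with the higher scoring 50% of peaks, where fewer regions were tested. Over all regions tested there the share was 5.15%. The count was 30 of 2619, beside 4.44% of all tested, when regions of at least 2 libraries were fitted with a pseudocount of 100 bp. The adjusted count was 0 throughout. With 1 library left out the unadjusted count ran from 122 to 173. It was 122 of 2757 without Control 1, beside 4.54% of all constant regions tested. It was 173 of 2752 without Control 6, beside 6.11%, so the share over all regions rose as well. The cause of the other changes was not tested.

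The difference in within-group spread, Ethanol minus Control, reversed to 0.00434 with the higher scoring 50% of peaks, 0.00580 at 800 bp and 0.000163 without both Control 6 and Ethanol 6. The score percentile difference reversed to -0.443 with equal peak numbers. With 1 library left out, the spread difference was -0.0136 to 0.00947 (reversed without each Control library and without Ethanol 4), the median length difference -2.53 to 35.0 bp, the score difference -0.137 to 2.22, the relative length difference -0.0141 to -0.00267 and the share difference -0.264 to -0.0920 percentage points. The score difference from longer constant regions was then -11.5 to -11.1 and that from narrow regions of 6 to 11 libraries 27.4 to 28.6. Of 78 other alternatives 69 were counted as unchanged, as were 111 of 120 with 1 library left out. For a test, unchanged meant the same direction and call. For a count it meant a total within 1.5 times the main one, whatever its split into longer and shorter regions. The split that turned without subtraction of the library median was therefore counted as unchanged.

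With the replicate number as a block the median length difference stayed at 19.8 bp (exact sign-flip permutation test, adjusted p = 0.5). Under this block limma left 0 narrow constant regions past the adjusted threshold. At an unadjusted p under 0.05 limma gave 138 of 2619, beside 5.87% of all constant regions, and no call changed. Deviations of same-numbered libraries correlated at -0.0722 to 0.214 over all constant regions, above 0.1 in 2 of 6 pairs. Such values cannot show how samples were handled, so whether equal numbers mark pairs was not settled. Peak lists without read counts cannot part depth from length.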

Other observations

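Across the 2619 narrow constant regions, the log2 covered lengths of pairs of libraries correlated with r from 0.426 (Control 1 and Ethanol 3) to 0.578 (Control 6 and Ethanol 6), with a median of 0.486 over 66 pairs. In longer constant regions r was 0.821 to 0.902, over a much wider range of lengths. The median absolute log2 difference between libraries was 0.27 in narrow constant regions and 0.30 in longer ones. With an equal number of peaks from every library, 2198 of the 2619 regions (83.9%) still had a peak in all 12 and 421 did not.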
